A study of Mus musculus with 86 samples.

Results

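The airway genes described here are 38 mouse genes, 5 secreted products of the airway epithelium and 33 genes of motile cilia, taken by name from the 38277 rows of the deposited lung table. The list takes genes by name and sets no threshold on a measured value, and it was drawn up with earlier results of these data known. All 38 were found, 25 under their present symbol and 13 under an older one through their gene identifier (Dnah5 is listed as Dnahc5 and Cfap52 as Wdr16). The row called Spag6 carries the identifier of the gene now named Spag6l. RNA-seq was done on whole lung of wild-type mice in an experiment on UNC569, an inhibitor of the receptor tyrosine kinase MERTK. Mice received bleomycin, which injures and scars the lung, or a sham treatment, and were injected with UNC569 or with its solvent DMSO. The 18 libraries comprised 3 of sham with DMSO (Sham DMSO), 3 of sham with UNC569 (Sham UNC569), 6 of bleomycin with DMSO (Bleo DMSO) and 6 of bleomycin with UNC569 (Bleo UNC569). Strain, age, dose and time after bleomycin were not given in the sources used here. Neither source says whether libraries of a group came from separate animals, so p-values measure only the spread between these libraries.

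The conducting airways are lined by secretory cells and by multiciliated cells. Secretory cells release secretoglobins, mucins and BPI-fold proteins into the airway fluid, and multiciliated cells move that fluid with cilia built on a microtubule axoneme driven by dynein arms. The transcription factor FOXJ1 is required for motile cilia, and RFX factors bind the X-box motif upstream of many cilia genes. In the mouse, Scgb1a1 marks club cells along the whole bronchial tree, whereas Bpifa1, Scgb3a1 and Muc5b are known mainly from the large airways and the trachea. Myh6 encodes the alpha heavy chain of cardiac myosin, which in mice is also made by the cardiac muscle around the pulmonary veins.

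To show what the 2 groups look like at their start sites, the 250 bases upstream of the annotated start are printed for 5 members, from RefSeq on GRCm38.p6, all on the plus strand, 5′ to 3′. Tekt4, Cfap44 and Hydin are the cilia members with a match on either strand in this stretch to a relaxed X-box, and the capitals mark it. Bpifa1 and Scgb3a1 are secretory members with no such match. The stretches are chr17:25471340-25471589 for Tekt4, chr16:44394549-44394798 for Cfap44, chr8:110266727-110266976 for Hydin, chr2:154142630-154142879 for Bpifa1 and chr11:49663345-49663594 for Scgb3a1.
Tekt4: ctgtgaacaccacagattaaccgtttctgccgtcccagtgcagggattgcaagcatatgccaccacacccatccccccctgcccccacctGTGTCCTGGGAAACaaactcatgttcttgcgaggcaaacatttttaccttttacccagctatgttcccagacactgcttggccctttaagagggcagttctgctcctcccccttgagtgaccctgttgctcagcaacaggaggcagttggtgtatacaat
Cfap44: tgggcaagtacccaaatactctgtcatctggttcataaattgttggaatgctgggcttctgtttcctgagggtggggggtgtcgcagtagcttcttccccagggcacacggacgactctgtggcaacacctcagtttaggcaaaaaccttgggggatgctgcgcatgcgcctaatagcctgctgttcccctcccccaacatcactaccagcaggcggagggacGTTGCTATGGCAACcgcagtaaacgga
Hydin: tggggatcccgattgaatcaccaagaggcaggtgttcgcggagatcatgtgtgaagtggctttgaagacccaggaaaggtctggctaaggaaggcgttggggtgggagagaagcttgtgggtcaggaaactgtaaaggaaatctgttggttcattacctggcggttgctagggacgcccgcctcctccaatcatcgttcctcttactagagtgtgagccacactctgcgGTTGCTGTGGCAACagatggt
Bpifa1: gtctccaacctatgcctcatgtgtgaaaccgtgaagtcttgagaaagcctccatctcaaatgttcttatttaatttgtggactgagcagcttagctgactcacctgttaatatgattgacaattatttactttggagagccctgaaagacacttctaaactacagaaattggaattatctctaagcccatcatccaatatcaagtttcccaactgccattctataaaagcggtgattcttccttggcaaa
Scgb3a1: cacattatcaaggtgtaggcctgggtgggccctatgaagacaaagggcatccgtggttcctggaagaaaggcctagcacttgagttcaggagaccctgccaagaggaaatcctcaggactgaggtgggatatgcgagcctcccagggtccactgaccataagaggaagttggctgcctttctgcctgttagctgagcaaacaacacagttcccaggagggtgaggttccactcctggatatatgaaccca

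A promoter window of 300 bases, 250 before and 50 from the start site on, was held for 29 of the 38 members. The relaxed X-box was found in 5 of 27 cilia members (18.5%) and in 2.17% of the 27025 promoters in the table. The other 2 of those 5, Zmynd10 and Spag6, had it only after the start site. The forkhead motif TGTTTAC, searched on both strands, was found in 4 of 27 cilia members (Cfap43, Mlf1, Sntn and Ak7, 14.8%) and in 3.55% of all promoters. The related motif TGTTTGC was found in 3 of 27 cilia members (Tekt1, Tekt2 and Tekt4, 11.1%), in Scgb3a1, and in 5.04% of all promoters. No X-box and forkhead match overlapped in a member, and a match describes letters only. X-box-like sites with another spacing were not searched for, so members without a match may hold one.

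Levels are FPKM, fragments scaled to transcript length and to the total of the library, so that levels of different genes can be compared. Read depth behind them is unknown. The lung libraries summed to between 519376 and 650081 FPKM and had 14255 to 14845 genes at 1 FPKM or more. Sham DMSO 0 and Sham DMSO 1 were the most alike of all pairs of libraries, with an SD of the log2 difference between them of 0.41 over genes, against 0.47 for the next closest pair. Without counts it cannot be tested whether they are 1 library. Several results that rest on them are therefore also given with the pair averaged or left out. The third sham DMSO library, Sham DMSO 2, differed from them in most members. In bulk lung, fewer cells of a type and less RNA per cell cannot be told apart.

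Scgb1a1, the club cell secretoglobin, was the most abundant member and made up between 4.87% and 20.8% of a library's summed FPKM. Its level was 113706, 127096 and 57503 FPKM in Sham DMSO and 86733, 54603 and 60259 FPKM in Sham UNC569. In Bleo DMSO it ranged from 25321 to 77351 FPKM with a median of 59564, and in Bleo UNC569 from 49975 to 135474 with a median of 72358. The groups overlapped, and the highest single library belonged to Bleo UNC569. Scgb3a2, a secretoglobin of smaller airways, was at 109.6, 103.5 and 16.3 FPKM in Sham DMSO and at 33.5, 37.5 and 36.9 FPKM in Sham UNC569. It ranged from 6.09 to 37.2 FPKM in Bleo DMSO (median 25.6) and from 23.2 to 68.1 in Bleo UNC569 (median 48.8). The first 2 sham DMSO libraries were the only ones above 100 FPKM, while Sham DMSO 2 lay within the bleomycin range.

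The other 3 secretory members varied over a far wider range. Bpifa1, a secreted BPI-fold protein with antimicrobial activity, was at 1607, 1546 and 0 FPKM in Sham DMSO and at 0, 1418 and 2.86 FPKM in Sham UNC569. It ranged from 0 to 26.04 FPKM in Bleo DMSO (median 15.5) and from 0.57 to 305 in Bleo UNC569 (median 22.9), and it was listed at 0 in 4 of the 18 libraries. Scgb3a1 was at 3151, 3053 and 4.44 FPKM in Sham DMSO and at 3.77, 736 and 106 FPKM in Sham UNC569. Its range was 4.39 to 447 FPKM in Bleo DMSO (median 112) and 16.3 to 1220 in Bleo UNC569 (median 167). Muc5b, the gel-forming mucin, was at 36.9, 38.001 and 0.14 FPKM in Sham DMSO and at 0.39, 7.49 and 3.08 FPKM in Sham UNC569. It ranged from 0.12 to 9.13 FPKM in Bleo DMSO (median 1.98) and from 0.57 to 18.6 in Bleo UNC569 (median 4.28). Over the 18 libraries the highest level was 836 times the lowest for Scgb3a1 and 308 times for Muc5b, against 5.35 times for Scgb1a1 and 18.003 times for Scgb3a2. Within Sham DMSO, Sham DMSO 0 and 1 were the highest of the 18 libraries for Bpifa1, Scgb3a1, Muc5b and Scgb3a2, and Sham DMSO 2 was among the low ones.

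Foxj1, the transcription factor of motile ciliogenesis, was at 304, 276 and 60.1 FPKM in Sham DMSO and at 113, 94.9 and 65.3 FPKM in Sham UNC569. It ranged from 48.1 to 151 FPKM in Bleo DMSO (median 93.3) and from 82.2 to 225 in Bleo UNC569 (median 154). Its highest level was 6.31 times its lowest, and all 4 groups overlapped apart from the first 2 sham DMSO libraries, which lay above every other library. The most abundant cilia member was Tppp3, a tubulin polymerisation promoting protein, at 856, 847 and 641 FPKM in Sham DMSO and 776, 570 and 585 FPKM in Sham UNC569. It ranged from 240 to 624 FPKM in Bleo DMSO (median 581) and from 298 to 871 in Bleo UNC569 (median 658). All 6 Bleo DMSO libraries lay below all 3 Sham DMSO libraries for Tppp3, with the highest Bleo DMSO library at 624 FPKM and the lowest Sham DMSO library at 641. It was the single tested member whose groups did not overlap in that comparison, and 3.41% of the 15935 genes tested did likewise.

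Cfap126, a protein of basal body docking, was at 62.7, 57.0 and 18.9 FPKM in Sham DMSO and at 22.7, 18.3 and 16.7 FPKM in Sham UNC569. Its range was 9.42 to 37.5 FPKM in Bleo DMSO (median 18.6) and 18.1 to 43.3 in Bleo UNC569 (median 25.6). Ccdc40, which with Ccdc39 forms the ruler that sets the axonemal repeat, was at 51.1, 50.7 and 10.7 FPKM in Sham DMSO and at 17.2, 18.4 and 19.1 FPKM in Sham UNC569. It ranged from 7.28 to 24.4 FPKM in Bleo DMSO (median 14.9) and from 12.0 to 32.2 in Bleo UNC569 (median 25.1). For both genes Sham DMSO 0 and 1 were the highest of the 18 libraries, and Sham DMSO 2 lay within the bleomycin range.

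Dynlrb2, a dynein light chain, was at 38.3, 35.4 and 13.1 FPKM in Sham DMSO and at 25.8, 25.4 and 18.5 FPKM in Sham UNC569. Its range was 2.78 to 18.6 FPKM in Bleo DMSO (median 14.01) and 10.7 to 23.8 in Bleo UNC569 (median 19.6). Ccdc153, a coiled-coil protein of ciliated cells, was at 29.03, 34.05 and 5.34 FPKM in Sham DMSO and at 16.7, 12.6 and 10.2 FPKM in Sham UNC569. It ranged from 4.62 to 16.7 FPKM in Bleo DMSO (median 9.73) and from 9.07 to 23.4 in Bleo UNC569 (median 16.5). The dynein heavy chains were lower, from a mean of 0.29 FPKM for Dnah7a to 4.34 for Dnah9. Dnah7a reached at most 0.78 FPKM and did not pass the filter of 1 FPKM in at least 3 libraries, so 37 of the 38 members were tested. Mlf1, a ciliated cell marker at a mean of 1.98 FPKM, was the 1 cilia member listed at 0 in any library, in 2 of them.

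The members' tissue was checked in the kidney and liver tables of the same inhibitor experiment. There 4 of 5 secretory members stayed under 1 FPKM in every kidney library and all 5 in every liver library. Of 33 cilia members, 21 stayed under 1 FPKM in every kidney library and 28 in every liver library. Foxj1 was measurable in kidney, with a median of 15.2 FPKM over 17 libraries, against 0.41 over 16 liver libraries.

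**Figure D1:**
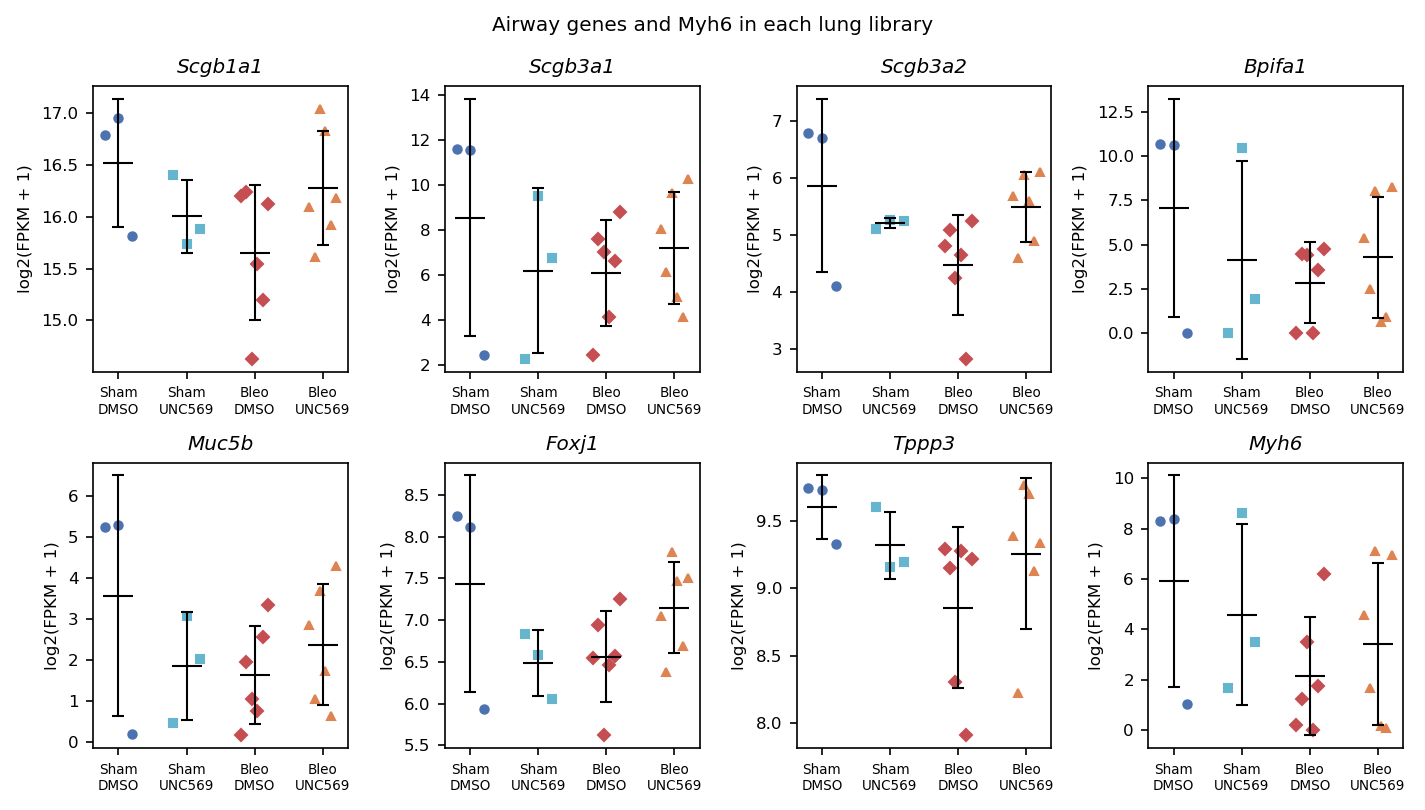
Each panel plots log2(FPKM + 1) of 1 gene in the 18 lung libraries (points, coloured by group), with the group mean as a bar and 1 SD as the error bar. In Sham DMSO, 2 libraries lie at the top and Sham DMSO 2 lies far below them for Scgb3a1, Bpifa1, Muc5b and Myh6.

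Whether bleomycin changed the airway genes was asked first in mice given DMSO. All 37 tested members had a lower mean of log2(FPKM + 1) in Bleo DMSO than in Sham DMSO, and 0 passed the test. That scale understates changes of low genes. The limma test called 0 members at an adjusted p (Benjamini-Hochberg over all genes) under 0.05, where it called 11 of 15935 genes, 4 higher (0.0251%) and 7 lower (0.0439%). At an unadjusted p under 0.05, 28 of the 37 were lower and 0 higher, against 10.8% of all genes lower and 8.76% higher. A negative estimate was found for 53.3% of all genes. The cilia members had a median difference of -0.94 and the secretory members of -1.93, against -0.02 over all genes.

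Sntn, a protein of the ciliary tip, had the smallest p of the members, with a difference of -1.40 ± 0.42 (SE) and an adjusted p of 0.116 by limma. Next came Ccdc39 at -1.004 ± 0.31 and Tekt2, a tektin of the doublet microtubules, at -0.99 ± 0.30, both with an adjusted p of at least 0.117 by limma. Foxj1 differed by -0.87 ± 0.44 (adjusted p = 0.290 by limma) and Scgb1a1 by -0.86 ± 0.46 (adjusted p = 0.302 by limma). Bpifa1 had the largest difference, -4.21 ± 2.54, with an adjusted p of 0.364 by limma. Scgb3a1 differed by -2.46 ± 2.03, Muc5b by -1.93 ± 1.06 and Scgb3a2 by -1.39 ± 0.55, and their adjusted p-values were 0.527, 0.320 and 0.186 by limma. Bpifa1 was listed at 0 FPKM in Sham DMSO 2, so no Bleo DMSO library could lie below all Sham DMSO libraries for it. Of 80 further cilia genes tested, 79 had a negative estimate and 0 passed, with a median of -0.80, and 41 had an unadjusted p under 0.05. Of 29 further airway secretory genes, 27 had a negative estimate and 0 passed, with a median of -1.16, and 17 had an unadjusted p under 0.05. Of 15 genes that regulate ciliogenesis, 12 had a negative and 3 a positive estimate and 0 passed, with a median of -0.33, and at an unadjusted p under 0.05 3 were lower and 1 was higher.

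The count of members called depended on Sham DMSO 2. Without that library, 31 of the 37 members fell (adjusted p under 0.05, limma), among 1265 genes lower and 646 higher. The control group was then Sham DMSO 0 and 1 alone, the pair that may be 1 library, so the spread within it may not be that between samples. Foxj1 then differed by -1.62 ± 0.38 (adjusted p = 0.0135 by limma), Sntn by -2.09 ± 0.37 (adjusted p = 0.00667 by limma) and Bpifa1 by -7.75 ± 2.44 (adjusted p = 0.0488 by limma), while Scgb1a1 differed by -1.22 ± 0.50 (adjusted p = 0.129 by limma) and did not pass. With Sham DMSO 0 and 1 averaged into 1 library, 0 members passed and the median over members was -0.70. Without both, only Sham DMSO 2 was left, 24 members had a positive estimate and 13 a negative one, and the median over members was 0.11. The lone library was then assumed to vary like the other groups. With the level of Myh6 as a covariate, 35 of 37 estimates were negative, 0 passed, and the medians were -0.63 for cilia and -0.17 for secretory members.

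**Figure D2:**
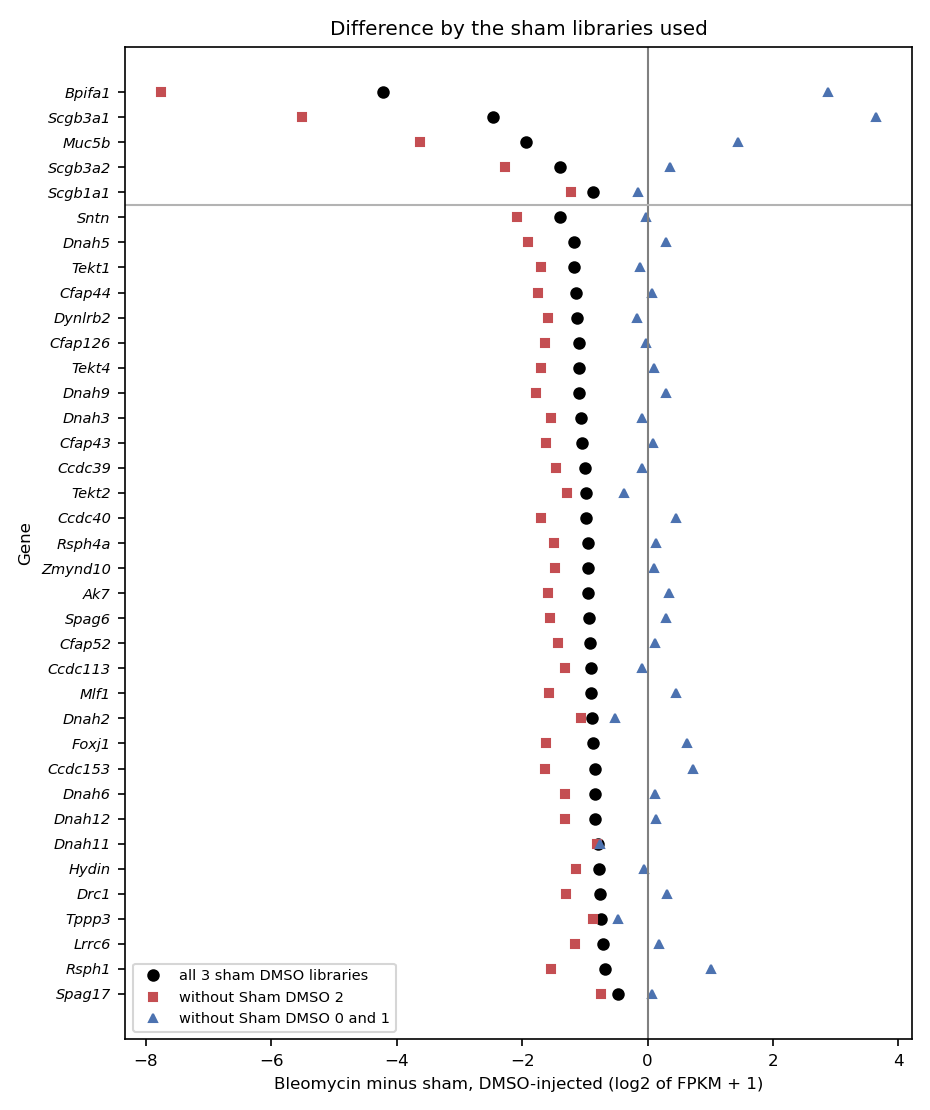
The horizontal axis gives the difference between Bleo DMSO and Sham DMSO in log2(FPKM + 1) for each of the 37 tested members, with secretory members at the top and cilia members below. Black points use all 3 Sham DMSO libraries and are all negative, red squares leave out Sham DMSO 2, and blue triangles leave out Sham DMSO 0 and 1 and lie on both sides of 0.

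Summed levels of markers of other cells are given for this comparison, with 0 genes passing by limma in each list. Of the sums given, only that of macrophage genes did not overlap between the groups. The summed level of 28 cardiac muscle genes was 4447, 4479 and 155 FPKM in Sham DMSO and between 105 and 919 FPKM in Bleo DMSO. The summed level of 10 smooth muscle genes was 1029, 1006 and 411 FPKM in Sham DMSO and between 323 and 604 in Bleo DMSO. For both lists Sham DMSO 2 lay within the Bleo DMSO range. The sum of 10 alveolar type 2 genes was 5145, 4998 and 5022 FPKM in Sham DMSO and between 3615 and 5868 in Bleo DMSO. The macrophage sum of 11 genes lay between 253 and 292 FPKM in Sham DMSO and between 302 and 1069 in Bleo DMSO, and the sum of 8 matrix genes between 327 and 442 and between 439 and 3034. Their part in the members' difference was not tested.

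In mice given UNC569, most estimates were positive. In Bleo UNC569 against Sham UNC569, 35 of the 37 members had a positive estimate, against 42.4% of all genes, with a median of 0.27 for cilia and 0.28 for secretory members, against -0.05 over all genes. The limma test called 0 members, among 4 of 15935 genes called (0.0251%), and 0 members had an unadjusted p under 0.05, against 10.6% of all genes. The members' estimates ranged from -0.34 to 1.02. In the same comparison 23 of 27 cardiac muscle genes (median -0.42) and 8 of 9 smooth muscle genes (median -0.31) had a negative estimate. All 11 macrophage (median 0.43) and all 8 matrix genes (median 0.74) had a positive one, with 0 passing in each list. Their part in the members' difference was not tested.

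The effect of UNC569 after bleomycin was compared between the 2 groups of 6 libraries, with no sham library involved. Of the 37 members, 36 had a higher mean in Bleo UNC569 than in Bleo DMSO, against 46.9% of all genes, and 0 passed by limma, where 0 of 15935 genes passed (0.0%). At an unadjusted p under 0.05, 3 members were higher (Spag17, Scgb3a2 and Sntn), against 2.01% of all genes. The median difference was 0.44 for cilia and 1.01 for secretory members. Scgb3a2 was 1.01 ± 0.45 higher, with an unadjusted p of 0.0382 and an adjusted p of 0.867 by limma, and 4 of its 6 Bleo UNC569 libraries lay above every Bleo DMSO library. Foxj1 differed by 0.59 ± 0.36 (adjusted p = 0.867 by limma) and Scgb1a1 by 0.63 ± 0.37 (adjusted p = 0.867 by limma). Both differences lay within the spread between libraries. Some lists of markers of other cells had estimates mostly of 1 sign in the same comparison. A positive estimate was found for 24 of 27 cardiac muscle genes (median 0.89) and 8 of 9 smooth muscle genes (median 0.15). All 11 macrophage (median -0.36), all 8 matrix (median -0.38) and 7 of 8 basal cell genes (median -0.17) had a negative one. Signs were mixed for alveolar type 2 genes (4 of 10 positive, median -0.03) and general epithelial genes (4 of 8 positive, median -0.06). In each of these lists 0 passed. The cardiac sum lay between 105 and 919 FPKM in Bleo DMSO and between 108 and 1995 in Bleo UNC569. Their part in the members' difference was not tested.

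In sham lung, 36 of the 37 members had a lower mean with UNC569 than with DMSO, against 48.3% of all genes, and 0 passed, where 0 of 15935 genes passed by limma (0.0%). At an unadjusted p under 0.05, 11 members were lower, all of them cilia genes, against 3.43% of all genes. Of 27 cardiac muscle genes 24 had a negative estimate as well (median -1.30), and of 9 smooth muscle genes 8 (median -0.48), with 0 passing. The cardiac sum was 198, 4232 and 210 FPKM in Sham UNC569, against the Sham DMSO sums given above, and its part in the members' difference was not tested. This comparison shares Sham DMSO with the first. Without Sham DMSO 2, which leaves that pair as the control group, 8 members were lower at an adjusted p under 0.05 (limma). They were among 272 genes passing in either direction, and how many of the 272 were lower is not given here. Without Sham DMSO 0 and 1 the estimate was positive for 29 of 37 members.

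The difference between the bleomycin responses with UNC569 and with DMSO was tested as an interaction. All 37 estimates were positive, against 47.2% of all genes, with a median of 1.22 for cilia and 2.45 for secretory members. None passed by limma, where 0 of 15935 genes passed (0.0%), and 25 had an unadjusted p under 0.05 with a positive sign, against 5.11% of all genes. Foxj1 had an interaction of 1.53 ± 0.63 with an adjusted p of 0.388 by limma. Without Sham DMSO 2 (same pair as control), the interaction passed for 23 members, among 691 genes passing in either direction, not split by sign. Without Sham DMSO 0 and 1 it passed for 0, the median over members was 0.14, and that of Foxj1 was 0.03 ± 0.61 (adjusted p = 1.00 by limma).

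Whether the airway genes tracked cardiac muscle was asked next, with Myh6 as the measure. Myh6 was at 312, 328 and 1.08 FPKM in Sham DMSO and at 2.19, 386 and 10.3 FPKM in Sham UNC569. It ranged from 0 to 71.9 FPKM in Bleo DMSO and from 0.08 to 136 in Bleo UNC569. High and low libraries occurred in all 4 groups, so the relation was measured over the 18 libraries and within the groups of 6. Of 26 other cardiac muscle genes tested, 22 correlated positively with Myh6 at an adjusted p under 0.05. Nppa reached 1371 FPKM, and the atrial light chain Myl7 was at most 1.34 FPKM and the ventricular light chain Myl2 at most 0.72 FPKM in any library.

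**Figure D3:**
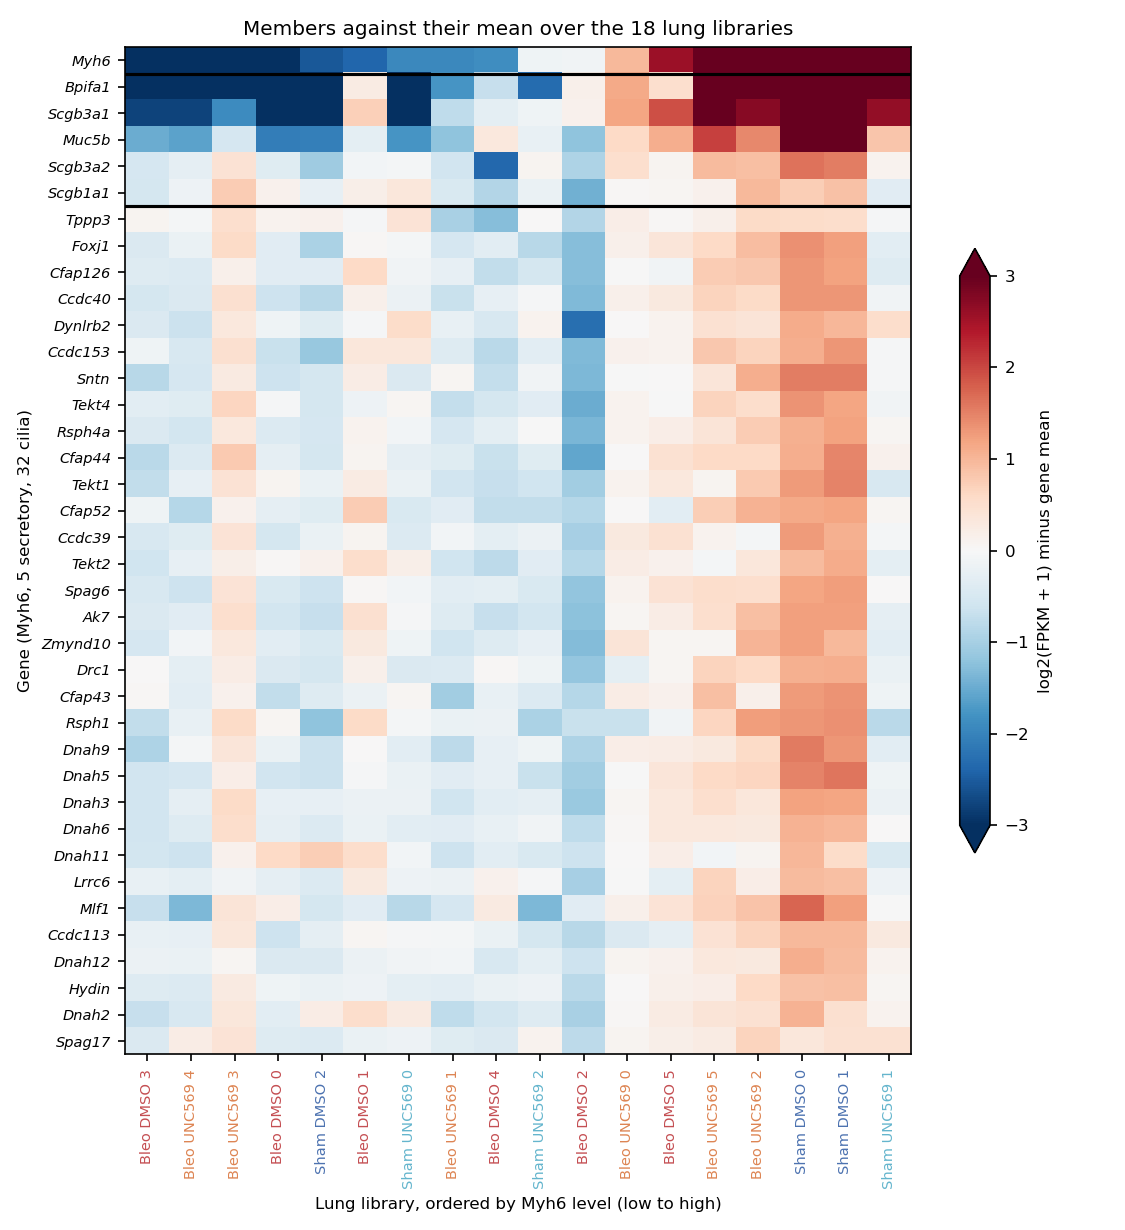
Rows are Myh6, the 5 secretory and the 32 tested cilia members, columns are the 18 lung libraries in order of Myh6, and colours give log2(FPKM + 1) minus the mean of the gene, saturating at 3 in either direction. Bpifa1 and Scgb3a1 change from low to high along with Myh6. Of the 32 cilia rows 30 peak in Sham DMSO 0 or 1, as do 4 of the 5 secretory rows, and 27 cilia rows are lowest in Bleo DMSO 2.

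Bpifa1, Scgb3a1 and Muc5b rose with Myh6. In a limma fit with a term for each group, each unit of log2 Myh6 went with 1.18 ± 0.10 units of log2 Bpifa1 (adjusted p = 1.43e-06 by limma), 0.93 ± 0.10 of Scgb3a1 and 0.47 ± 0.06 of Muc5b. The slope of Scgb1a1 was 0.04 ± 0.05 (adjusted p = 0.838 by limma), and that of Scgb3a2 was 0.16 ± 0.05 (adjusted p = 0.141 by limma). Of 32 cilia members, all had a positive slope and 2 passed, Mlf1 at 0.18 ± 0.04 (adjusted p = 0.0145 by limma) and the outer dynein arm chain Dnah5 at 0.14 ± 0.04 (adjusted p = 0.0434 by limma). The median slope of the cilia members was 0.09, against -0.001 over all genes, and that of Foxj1 was 0.13 ± 0.04 (adjusted p = 0.171 by limma). In all 5 of 37 members passed, against 3.16% of 15934 genes with a positive slope and 0.144% with a negative one. At an unadjusted p under 0.05 the slope was positive for 27 members, against 10.5% of all genes.

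The slopes of Bpifa1, Scgb3a1 and Muc5b passed without any single library and with the close pair left out or averaged. The count of members with a slope past the threshold was 3 without Sham DMSO 2, 3 without both libraries of the close pair, 8 without Bleo UNC569 3 and 13 without Bleo DMSO 2. Over all genes, 201 to 654 had a positive slope past the threshold in the fits that left out 1 library, against 504 with all libraries. Dnah5 did not pass in 13 of the 18 fits that left out 1 library, and Mlf1 in 1 of them.

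Correlations over the 18 libraries gave the same order. Bpifa1 correlated with Myh6 at r = 0.938 and rho = 0.898, and both permutation p-values were 1e-05, the smallest that the resampling could give (adjusted p = 0.000948 for r and 0.00238 for rho over 15934 genes). Without the 2 libraries farthest from the median of Myh6, Sham UNC569 1 and Sham DMSO 1, r was 0.910. Within Bleo UNC569 r was 0.999 (exact permutation p = 0.00556, n = 6) and within Bleo DMSO it was 0.742 (exact permutation p = 0.0778, n = 6). Scgb3a1 had r = 0.893 and rho = 0.872 (permutation p = 1e-05 and 4e-05, adjusted p = 0.000948 and 0.00585), and 0.878 without those libraries. Within Bleo UNC569 its r was 0.988 and within Bleo DMSO 0.791 (exact permutation p = 0.00417 and 0.0556). Muc5b had r = 0.882 and rho = 0.851 (permutation p = 1e-05 and 4e-05, adjusted p = 0.000948 and 0.00585), and 0.891 without them. Its r was 0.941 within Bleo UNC569 and 0.724 within Bleo DMSO (exact permutation p = 0.0153 and 0.10).

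Scgb1a1 had r = 0.344 and rho = 0.224 with Myh6 (permutation p = 0.161 and 0.370, adjusted p = 0.467 and 0.730), and 0.334 without the farthest libraries. Foxj1 had r = 0.574 and rho = 0.476 (permutation p = 0.0128 and 0.0478, adjusted p = 0.124 and 0.330), and 0.601 without them. Within Bleo DMSO the r of Foxj1 was 0.219 and within Bleo UNC569 0.617 (exact permutation p = 0.640 and 0.179), so the relation did not pass within either group. In all 4 of 5 secretory and 8 of 32 cilia members had an r with an adjusted p under 0.05, against 5.15% of all genes with a positive r, and by rho the 3 secretory members named above passed. Within Bleo DMSO, 0 of 32 cilia and 0 of 5 secretory members had an exact permutation p under 0.05 for r with Myh6, and the median r was 0.20 and 0.72. Within Bleo UNC569, 4 of 32 and 3 of 5 did, with a median r of 0.62 and 0.94. The share of all genes with such a p within a group is not given here. After adjustment over all genes 0 passed in either group. A group of 6 has only 720 orders, too few for a gene to pass alone, so that result cannot decide the question. The count of 12 members that passed by r over the 18 libraries was 3 with a pseudocount of 0.1, 4 with the close pair averaged and 3 without it. It was 4 to 21 when 1 library was left out, with the fewest without Sham DMSO 0 or 1 (4 each) and the most without Bleo DMSO 2 (19) or Bleo UNC569 3 (21). Over all genes, 457 to 1238 passed in either direction when 1 library was left out.

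Single libraries held both patterns. Sham DMSO 0 and 1 had Myh6 at 312 and 328 FPKM, and Bpifa1, Foxj1 and Scgb1a1 were high there as well. Bleo UNC569 2 likewise had Myh6 at 136 FPKM, Bpifa1 at 256, Foxj1 at 225 and Scgb1a1 at 135474. Sham UNC569 1 had the highest Myh6 of all libraries, 386 FPKM, with Bpifa1 at 1418 FPKM. Yet its Foxj1 was 94.9 FPKM and its Scgb1a1 54603 FPKM, both under the medians of Bleo UNC569. Within Sham UNC569 that Foxj1 level was the median and that Scgb1a1 level the lowest. The Foxj1 level was also near the Bleo DMSO median of 93.3 FPKM. Bleo UNC569 3 had Myh6 at 0.13 FPKM and Bpifa1 at 0.57 FPKM, with Foxj1 at 176 FPKM and Scgb1a1 at 116212 FPKM. There Foxj1 and Scgb1a1 were high together while Bpifa1 was near 0.

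Foxj1 and Scgb1a1 rose together over the 18 libraries, with r = 0.849 and rho = 0.816 (permutation p = 3e-05 and 1e-04, adjusted p = 0.00103 and 0.00348 over 15934 genes). Without Sham DMSO 0 and 1, the libraries farthest from the median of Foxj1, r was 0.811. Within Bleo DMSO r was 0.842 (exact permutation p = 0.0361, n = 6) and within Bleo UNC569 0.905 (exact permutation p = 0.0139, n = 6). Adjusted p-values of the same test were 0.653 and 0.311. With 720 orders a gene could hardly pass that adjustment, so the adjusted values cannot decide the question. The other 4 secretory members also passed with Foxj1, Scgb3a2 at r = 0.793, Muc5b at 0.790, Scgb3a1 at 0.637 and Bpifa1 at 0.618 (permutation test, adjusted p = 0.00239, 0.00339, 0.0347 and 0.0440). Without Sham DMSO 0 and 1, r was 0.663, 0.635, 0.433 and 0.383. The counts of genes passing with Foxj1 treat Sham DMSO 0 and 1 as separate libraries and were not made again without them. Of 27 cardiac muscle genes 14 passed with Foxj1, and of 9 smooth muscle genes 7. Of the 31 other cilia members tested, 30 correlated positively with Foxj1 at an adjusted p under 0.05 and Dnah11 did not (r = 0.535, adjusted p = 0.101), against 9.77% of all genes. The highest r were those of Ak7 (0.966), Spag6 (0.955) and Dnah5 (0.953), which act in axonemal energy supply, the central pair and the outer dynein arm. Of 80 further cilia genes 74 passed likewise. As a description of the members among themselves, the median r over the 496 pairs of cilia members was 0.838, and 0.815 after the group means were subtracted. The median r with the cilia members was 0.818 for Scgb1a1, 0.790 for Scgb3a2, 0.784 for Muc5b, 0.645 for Scgb3a1 and 0.621 for Bpifa1. Each FPKM is relative to all fragments of its library, so levels within a library are not independent.

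**Figure D4:**
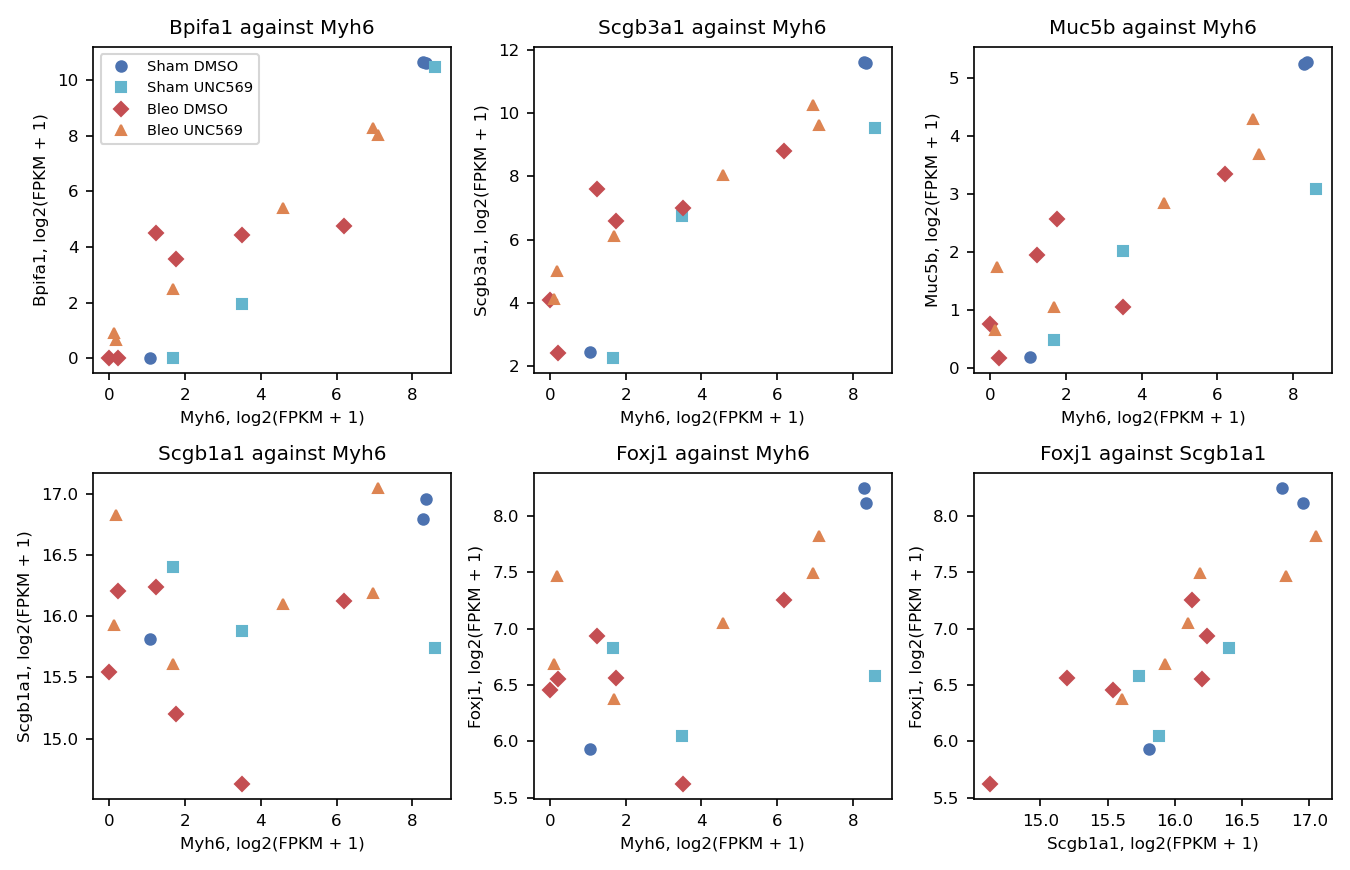
Each point is 1 of the 18 lung libraries in log2(FPKM + 1), marked by group. Bpifa1, Scgb3a1 and Muc5b rise along Myh6 (r = 0.938, 0.893 and 0.882), Scgb1a1 and Foxj1 scatter more widely against it (0.344 and 0.574), and Foxj1 rises along Scgb1a1 (0.849).

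Among the other airway genes, 11 of 29 further secretory genes rose with Myh6 by limma and 1 of 80 further cilia genes did. Reg3g, an antimicrobial lectin, had a slope of 0.87 ± 0.07 (adjusted p = 7.33e-07 by limma), Bpifb1, a relative of Bpifa1, one of 0.58 ± 0.05, and Tff2, a trefoil peptide of mucous cells, one of 0.38 ± 0.05. The single cilia gene was Cfap45, listed as Ccdc19, at 0.14 ± 0.04 (adjusted p = 0.0434 by limma). Smooth muscle genes rose as well, 5 of 9 tested by slope, with Acta2 at 0.14 ± 0.03 (adjusted p = 0.00481 by limma), and Cnn1 was listed at 0 in every library. Of 10 alveolar type 2, 9 alveolar type 1, 11 macrophage and 8 matrix genes, 0 passed in either direction, and at an unadjusted p under 0.05 2, 2, 1 and 1 had a negative slope. The slope was negative for all 10 type 2 (median -0.03) and all 9 type 1 genes (median -0.04), and for 6 macrophage and 4 matrix genes. Of 8 basal cell genes tested 0 passed by slope, with Aqp3 at 0.24 ± 0.07 (adjusted p = 0.0589 by limma), but 5 had a positive slope at an unadjusted p under 0.05, and 3 of the 8 passed by r over the 18 libraries. The part of cardiac or smooth muscle content in the levels of Bpifa1, Scgb3a1 and Muc5b was not tested.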

How the data were processed

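Total RNA of lung was made into libraries with an unstranded kit and sequenced at 100 bases, per the labels' protocols. The submitters' processing notes name FastQC, Trim Galore, STAR and edgeR with mm10 and hg38. The authors deposited FPKM values in 1 table for lung, and which tool made them is not given in the sources used here. Its columns name the group of a library but not the sample. The numbers 0 to 5 are those of the columns. Only FPKM of the inhibitor experiment was used, and the kidney and liver tables served only for the check of tissue. The members and the lists were chosen with earlier results of these data known.

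Genes with at least 1 FPKM in at least 3 libraries were kept, 15935 in all. Values were analysed as log2(FPKM + 1) with limma 3.58.1 in R 4.3.3, using 1 term per group and an intensity trend, and p-values were adjusted by Benjamini-Hochberg over all genes. The slope fit added log2 Myh6. Correlations used 100000 permutations, or all 720 orders within groups of 6. On simulated data with 200 changed genes among 15624, the comparison of bleomycin with sham under DMSO recovered 71% of 2-fold and 98% of 4-fold changes with 12 false calls. Recovery of changes in the members themselves, with the spread of the measured Sham DMSO libraries, was not tested. In the measured libraries Bpifa1 differed by -4.21 ± 2.54 (SE) in this comparison and did not pass by limma. Members named with values in every library were the secretory members, Foxj1 and the 5 other cilia members with the highest mean, and the 3 members with the smallest p for bleomycin against sham under DMSO are named with their difference. Alternatives were a pseudocount of 0.1, no filter, a mean of at least 0.1 FPKM, median-of-ratios scaling, fits of only the groups compared, each library left out, Myh6 as a covariate, the mean of the cardiac list in place of Myh6, and the closest pair averaged. Leaving out both libraries of that pair was chosen after seeing the data. Promoters came from RefSeq on GRCm38.p6, the assembly also called mm10.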

Additional observations from a re-analysis of the deposited data

Results flagged for a closer look

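Of the 76 sets of member and bleomycin group tested for a library far from the others, 1 stood out, where chance marks about 1 in 20. Cfap52, a protein inside the doublet microtubules listed as Wdr16, was at 15.01 FPKM in Bleo DMSO 1, and the next highest Bleo DMSO library was at 7.61 FPKM. That gap was 0.686 of the range of the group.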

How the results depend on the processing

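Depth is unknown for FPKM, so counting error limits the low members (Dnah7a, Mlf1 and the dynein heavy chains) to an extent that cannot be given. No paired analysis was possible because the columns carry no replicate numbers of the labels. The comparisons that use Sham DMSO rest on 3 libraries of which 2 may be 1. For bleomycin against sham with DMSO, the 4 genes higher became 18 with a pseudocount of 0.1, 2 with no filter, 11 with median-of-ratios scaling, 1 with only the 2 groups compared, and 0 with Myh6 as a covariate, with the closest pair averaged or with both of its libraries left out. The 7 genes lower became 1, 0, 1 and 1 with only the 2 groups compared, with Myh6 as a covariate, with the pair averaged and without it. The sign turned with Myh6 as a covariate for Scgb3a1 (1.03) and Bpifa1 (0.23). It turned without the closest pair for Scgb3a1 (3.65), Scgb3a2 (0.36), Bpifa1 (2.87), Muc5b (1.45) and Foxj1 (0.63) with only Sham DMSO 2 left as control, and the cause was not tested. With UNC569, the 4 genes that passed became 0 with only the 2 groups compared and 2 with the pair averaged. In sham lung 1 gene passed with no filter, with the pair averaged and without it, and for the interaction 1 gene passed with the pair averaged and without it, against 0. For the slope on Myh6, the 504 genes higher became 293 with a pseudocount of 0.1 and 169 without the pair, and the 23 lower became 9, 5 and 0 with that pseudocount, with the pair averaged and without it. The members with a slope past the threshold numbered 3 with that pseudocount and 3 without the pair. Genes that correlated with Myh6, 896 in all, numbered 507 with a pseudocount of 0.1, 464 with the pair averaged and 216 without it, and members 3, 4 and 3. When 1 library was left out, genes ranged from 0 to 646 higher and from 0 to 1265 lower for bleomycin with DMSO, and members lower from 0 to 31. Genes passing ranged from 0 to 8 for bleomycin with UNC569, from 0 to 1 for UNC569 after bleomycin, from 0 to 272 for UNC569 in sham (members 0 to 8) and from 0 to 691 for the interaction (members 0 to 23), and the highest of these counts for both DMSO sham comparisons and the interaction came without Sham DMSO 2. For the slope, genes ranged from 201 to 654 higher and from 1 to 67 lower and members from 3 to 13, and genes correlating with Myh6 from 457 to 1238 and members from 4 to 21. The r of Foxj1 with Scgb1a1 lay between 0.814 and 0.870 in those fits and passed in all of them. The r of Scgb3a2 with Myh6 did not pass in 14 of the 18.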
